A study of Mus musculus with 16 samples.

Results

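The genes described here are 33 genes of cholesterol and fatty acid synthesis and of the SREBP system that drives them, out of 19017 genes that could be tested. They fall into 3 lists: a sterol arm of 19 genes from acetyl-CoA to cholesterol, 5 regulators, and a fatty acid arm of 9 genes. Each gene was read from the brightest of its probes whose sample signal passed the scanner's background test on both arrays of some group, and 29 of the 33 probes were above background on all 16 arrays. The cells were 4TO7, a mammary carcinoma line from mouse, kept in medium with 10% serum, and every group carried 1 or both of the retroviral vectors pMSCV hygro and pMSCV puro. Cluster 1, Cluster 2, Clusters 1+2 and CDH1 are the 4 overexpression groups. Their controls were a Puro vec line for Cluster 1, a Hygro vec line for Cluster 2, a line with Hygro vec + Puro vec for Clusters 1+2 and a separate Puro vec line for CDH1, with 2 arrays (A and B) in each of the 8 groups. CDH1 is E-cadherin, the cell adhesion protein of epithelia. The labels do not say which miR-200 family miRNAs each cluster holds, or whether a line was a clone or a pool. Each array set 175 ng of total RNA of a sample against a Universal Mouse Reference RNA made from 11 mouse cell lines, so a level here is a log2 ratio of sample over reference and a change is a difference between such levels. A gene is called changed where its adjusted p was under 0.05 in the limma model with Benjamini-Hochberg adjustment over all genes tested.

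SREBF2 and SREBF1 encode membrane-bound transcription factors of the endoplasmic reticulum. SCAP escorts them to the Golgi, where they are cut and released to the nucleus when sterols are low, and INSIG1 and INSIG2 hold SCAP back when sterols are plentiful. SREBF2 is known mainly for driving the sterol genes, and SREBF1 for driving the fatty acid genes. The miR-200 miRNAs are known for keeping cells epithelial by repressing ZEB1 and ZEB2, which in turn repress E-cadherin.

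The miR-200 family is shown first because it is what the title of the study names as overexpressed. It falls into 2 seed groups. In the mature sequences below, from RefSeq on GRCm38.p6, capitals mark the seed (bases 2 to 8). The first 3 share AAUACUG and the other two share AACACUG. In that build miR-200b, miR-200a and miR-429 lie on chromosome 4 (minus strand, for example chr4:156055685-156055706 for miR-200b) and miR-200c and miR-141 on chromosome 6 (minus strand, for example chr6:124718324-124718346 for miR-200c).
mmu-miR-200b-3p: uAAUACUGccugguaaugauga
mmu-miR-200c-3p: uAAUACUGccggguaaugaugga
mmu-miR-429-3p: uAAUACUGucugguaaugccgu
mmu-miR-200a-3p: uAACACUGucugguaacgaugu
mmu-miR-141-3p: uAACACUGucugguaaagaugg

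Promoters are shown for 4 sterol genes with large changes and for Fasn, a fatty acid gene with a small one, as the 200 bases before the gene start, read 5′ to 3′ along the gene. They come from RefSeq on GRCm38.p6: Idi1 chr13:8885406-8885605 (plus strand), Hmgcs1 chr13:119690151-119690350 (plus), Msmo1 chr8:64733579-64733778 (minus), Tm7sf2 chr19:6067851-6068050 (minus) and Fasn chr11:120824548-120824747 (minus). Capitals mark any match, on either strand, to a sterol regulatory element of SREBP (TCACNCCAC), to the CCAAT box of NF-Y, or to the GC box of SP1 (GGGCGG), the last 2 being factors that often act beside SREBP.
Idi1: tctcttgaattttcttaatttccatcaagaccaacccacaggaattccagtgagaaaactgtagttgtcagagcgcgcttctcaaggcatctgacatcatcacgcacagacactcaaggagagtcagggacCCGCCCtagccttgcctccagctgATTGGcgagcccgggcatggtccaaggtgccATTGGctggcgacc
Hmgcs1: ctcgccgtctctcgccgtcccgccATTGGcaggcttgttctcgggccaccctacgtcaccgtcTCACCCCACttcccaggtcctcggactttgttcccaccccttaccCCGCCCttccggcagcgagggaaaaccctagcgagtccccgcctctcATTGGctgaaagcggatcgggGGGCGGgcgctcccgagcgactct
Msmo1: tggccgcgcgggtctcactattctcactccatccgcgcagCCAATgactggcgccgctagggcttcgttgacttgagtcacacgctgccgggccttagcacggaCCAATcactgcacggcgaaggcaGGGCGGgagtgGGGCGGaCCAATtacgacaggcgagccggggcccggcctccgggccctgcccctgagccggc
Tm7sf2: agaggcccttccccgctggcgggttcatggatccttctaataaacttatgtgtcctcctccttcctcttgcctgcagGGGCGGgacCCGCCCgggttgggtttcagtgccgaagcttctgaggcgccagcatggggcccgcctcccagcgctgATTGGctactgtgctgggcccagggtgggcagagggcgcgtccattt
Fasn: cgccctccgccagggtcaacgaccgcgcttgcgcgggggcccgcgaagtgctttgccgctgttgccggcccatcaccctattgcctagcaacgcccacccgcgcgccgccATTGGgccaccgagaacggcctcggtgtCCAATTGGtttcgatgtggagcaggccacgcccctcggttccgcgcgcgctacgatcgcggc

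In these windows the sterol regulatory element lay 137 bases before the start of Hmgcs1, and Hmgcs1 was the only one of the 27 members with a promoter entry that held it within 250 bases. Some genes have several windows of that length. Counted by gene, with a match in any of its windows, 331 of 27025 genes (1.22%) held it. The CCAAT box was found in 14 of 15 sterol genes, 4 of 5 regulators and 3 of 7 fatty acid genes, against 37.5% of all genes. The GC box was found in 14 of 15, 5 of 5 and 3 of 7 genes, against 35.4% of all genes. Counted by window, the CCAAT box was in 14 of 18 sterol windows and 3 of 8 fatty acid windows (33.8% of all windows), and the GC box in 15 of 18 and 3 of 8 (32.7% of all windows). In Fasn a CCAAT box on each strand overlapped. A match is a description, not a binding site or a cause, and the absence of these letters from a window says nothing about the factor.

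Over the whole series, 46.1 to 69.1% of probes were above background in the sample channel on 15 arrays, and 30.6% on Puro vec for CDH1 B, which stood apart. Between arrays A and B of a group the median absolute difference was 0.08 to 0.11 on the log2 scale over all genes and 0.05 to 0.10 over the members. The sample carried Cy3 in Hygro vec, Cluster 2, Hygro vec + Puro vec and Clusters 1+2 (A on slide 1, B on slide 2) and Cy5 in the others (CDH1 and its control on slide 3, Cluster 1 and its control on slide 4). The design text calls the arrays of a group biological replicates. Whether they were separate infections is not given, and p-values cover only the spread between these arrays. In such bulk RNA, fewer cells of a kind and less RNA per cell cannot be told apart. As a check of the labels, Cdh1 mRNA was 1.21, 1.93 and 2.86 higher (log2) in Cluster 1, Cluster 2 and Clusters 1+2 than in their controls, and 0.61 higher in CDH1 (adjusted p = 0.0057), where the control arrays were not well above background. For the CDH1 label the check is weak. Its log2 ratios were 0.57 and 0.77 in CDH1, against 1.01 and 0.94 in Hygro vec and 1.39 and 1.08 in Hygro vec + Puro vec, on other slides with the other dye.

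Cells with both clusters had higher mRNA for nearly the whole pathway. All 19 sterol genes rose, from 0.58 for Lss to 2.41 for Idi1 on the log2 scale, as did 8 of the 9 fatty acid genes and 3 of the 5 regulators. The fatty acid changes were mostly smaller, with a median of 0.42 against 1.28 for the sterol arm. No member fell. Of all genes tested, 12.0% rose and 12.7% fell in the same comparison, and 18.5% rose in the upper tercile of genes by brightness, which holds 22 of the 33 members. The median change of all genes was 0.00, and 17 of the 30 called members rose by at least 2-fold.

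**Figure D1:**
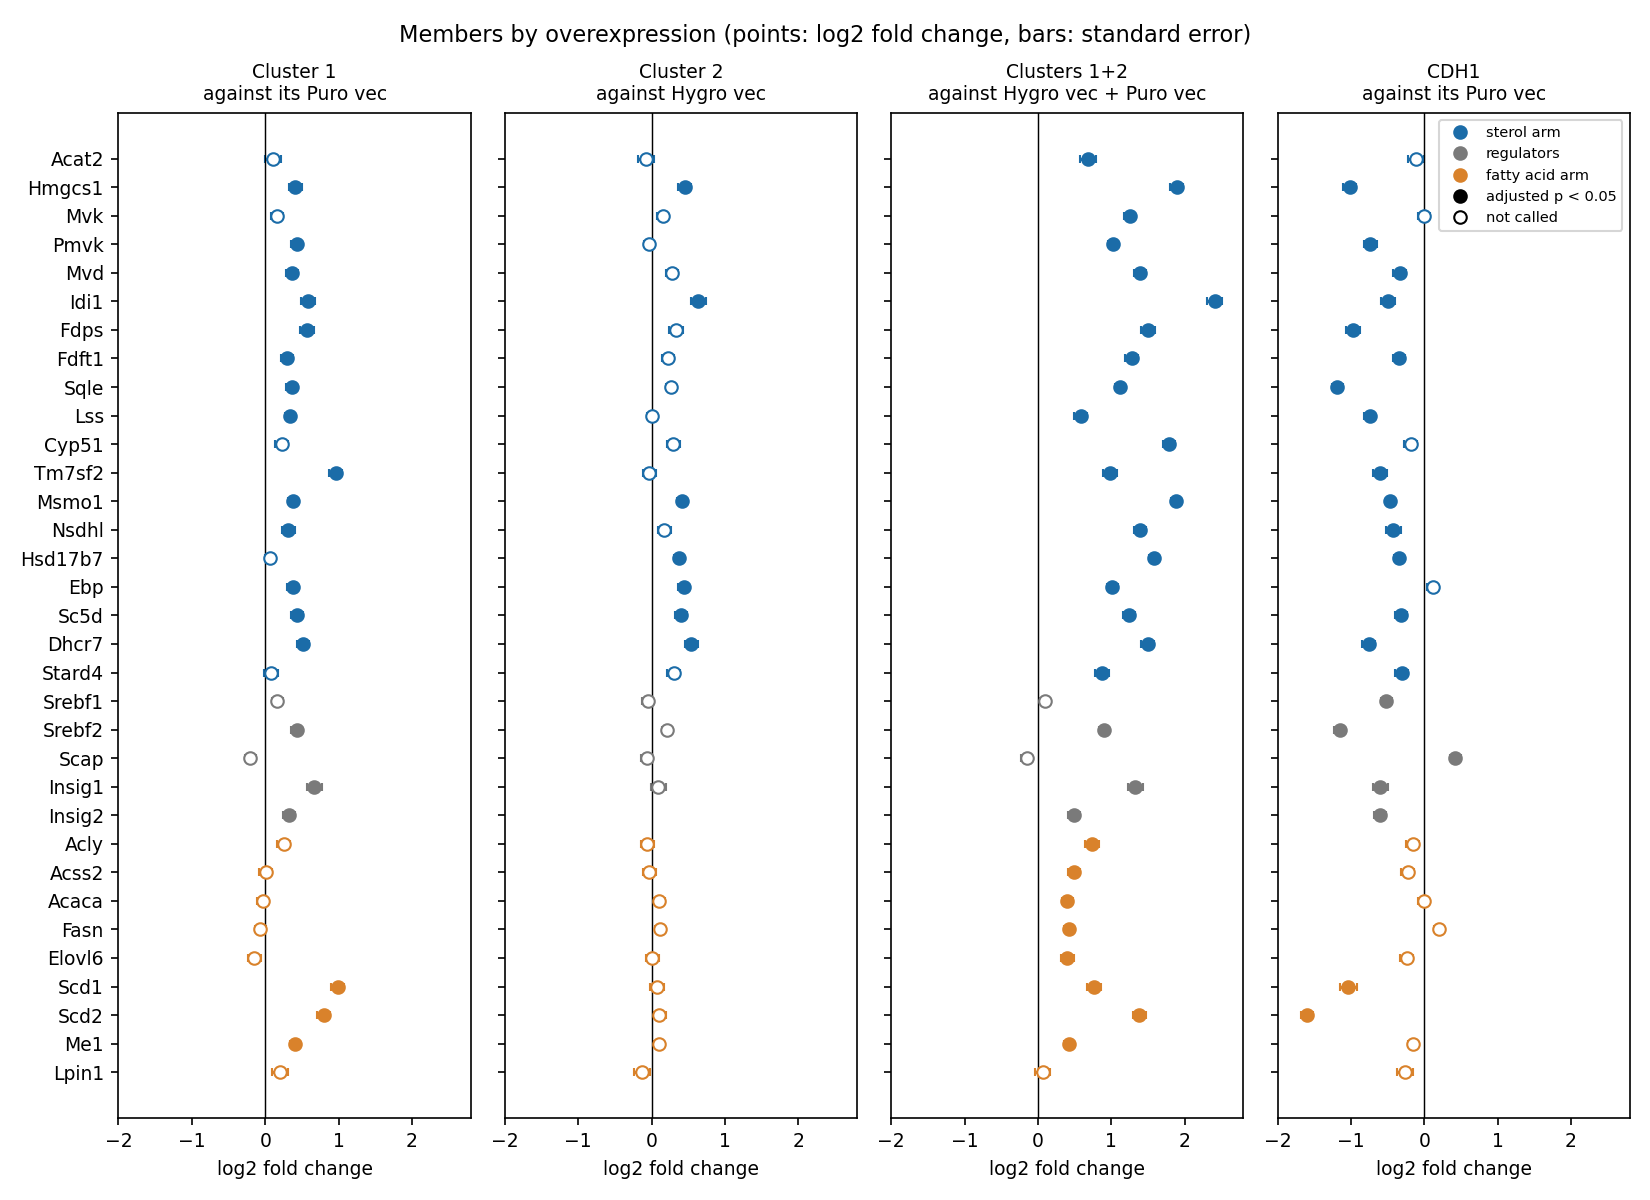
Log2 fold change of each of the 33 genes in the 4 overexpression groups against their own vector controls, coloured by arm, with bars for the standard error and open points for genes not called. In Clusters 1+2 every sterol gene lies at 0.58 or above, while in CDH1 most genes lie below 0.

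Among the enzymes that make and use mevalonate, Hmgcs1, which makes HMG-CoA, had log2 ratios to the reference of -1.65 and -1.57 in Hygro vec + Puro vec and 0.22 and 0.33 in Clusters 1+2. It rose by 1.89 (SE 0.0853, 3.70-fold, adjusted p = 1e-08). Idi1, the isopentenyl diphosphate isomerase, had the largest change of the 33. Its log2 ratios were -0.65 and -0.70 in the control and 1.73 and 1.73 in Clusters 1+2. That was a rise of 2.41 (SE 0.0988, 5.31-fold, adjusted p = 5.32e-09), with 2.39 on slide 1 and 2.43 on slide 2. For both genes the control arrays lay below the reference RNA, the Clusters 1+2 arrays lay above it, and the groups were far apart. Mvk and Pmvk, the kinases of mevalonate and phosphomevalonate, rose by 1.25 and 1.02, and Mvd, which decarboxylates the product, by 1.39. Fdps, the farnesyl diphosphate synthase, rose by 1.50. Acat2, the thiolase at the head of the pathway, rose by 0.68 (adjusted p = 0.000503).

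From squalene to cholesterol the rise was as broad. Fdft1, the squalene synthase, rose by 1.28 and Lss, the lanosterol synthase, by 0.58. The spots of Fdft1 and Lss were marked by the scanner software on Clusters 1+2 B and left out, so both values rest on Clusters 1+2 A alone. Sqle, the squalene epoxidase, rose by 1.12. Msmo1, a sterol methyl oxidase, had log2 ratios of -0.67 and -0.78 in the control and 1.17 and 1.15 in Clusters 1+2, a rise of 1.88 (SE 0.0665, 3.67-fold, adjusted p = 1.73e-09). Its 4 arrays fell into separate pairs, 1.83 apart on slide 1 and 1.92 apart on slide 2. Cyp51, the lanosterol demethylase, rose by 1.79, and Hsd17b7, which reduces the keto group left by demethylation, by 1.59. Dhcr7, which carries out a last reduction to cholesterol, rose by 1.49, Nsdhl by 1.39, Sc5d by 1.24 and Ebp by 1.02. The sterol reductase Tm7sf2 rose by 0.98 and the sterol carrier Stard4 by 0.87.

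The regulators did not move as a block. Srebf2 had log2 ratios of -1.53 and -1.45 in the control and -0.64 and -0.54 in Clusters 1+2, and rose by 0.90 (SE 0.0693, 1.87-fold, adjusted p = 9.94e-07). Insig1 had ratios of -1.21 and -1.03 in the control and 0.22 and 0.20 in Clusters 1+2, and rose by 1.33 (adjusted p = 1.05e-06). Insig2 rose by 0.49. In all 3 the arrays of the groups did not overlap, which was so for 57.7% of all genes too. Srebf1 differed by 0.10 (adjusted p = 0.412) and Scap by -0.16 (adjusted p = 0.165), and neither was called.

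In the fatty acid arm the desaturase Scd2 moved most. Its log2 ratios were -1.95 and -1.75 in the control and -0.53 and -0.40 in Clusters 1+2, a rise of 1.38 (SE 0.0842, 2.61-fold, adjusted p = 1.35e-07). Scd1, the related desaturase, rose by 0.76. Acly, which makes cytosolic acetyl-CoA from citrate, rose by 0.74, and Acss2, which makes it from acetate, by 0.49. Both arrays of Clusters 1+2 stood above both control arrays for these 4 genes. The arrays did not overlap, in either direction, for 57.7% of all genes. The chain-building enzymes changed less: Acaca, the acetyl-CoA carboxylase, rose by 0.40, Fasn, the fatty acid synthase, by 0.42 and Elovl6, an elongase, by 0.40. Elovl6 had no other probe. Other probes of Acaca and Fasn gave no call. Those of Acaca above background on 14 and 12 arrays gave 0.02 and 0.33, and that of Fasn gave 0.18, none called in limma. Me1, a malic enzyme that supplies NADPH, rose by 0.42. Lpin1, a phosphatidate phosphatase, differed by 0.06 (adjusted p = 0.751) and was not called. Of the 31 genes with values on both slides, 30 were higher in Clusters 1+2 on both, a share not counted over all genes. With the slide as a block 30 members were called, and of all genes 2471 were called higher and 2596 lower. The count of 8 fatty acid rises was 4 with scale normalisation between arrays (Acss2, Fasn, Elovl6 and Me1 lost) and 5 with the marked spots kept (Acss2, Elovl6 and Me1 lost). The rise of Elovl6 was also lost without Clusters 1+2 A or without Hygro vec + Puro vec B, and that of Acaca turned to -0.04 on the scanner software's processed signals.

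**Figure D2:**
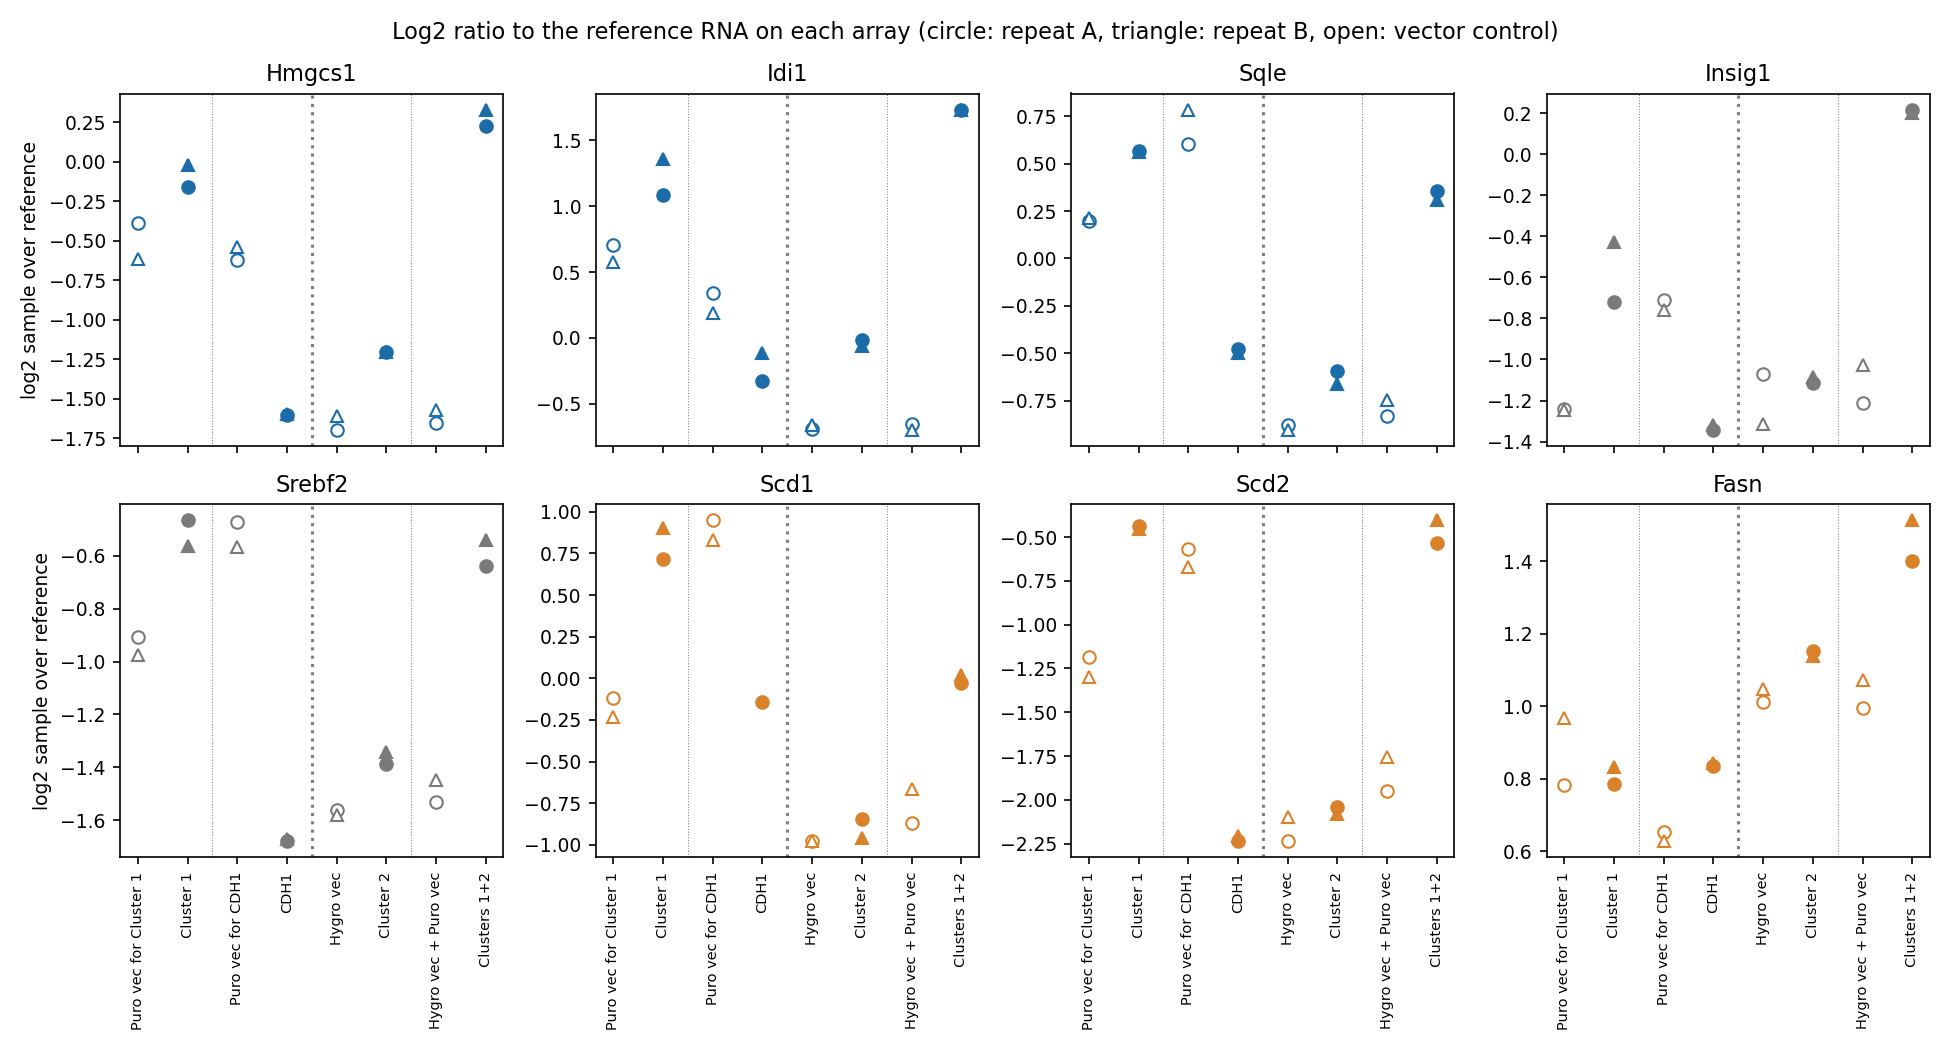
Log2 ratio of sample over reference for Hmgcs1, Idi1, Sqle, Insig1, Srebf2, Scd1, Scd2 and Fasn on each array, by group, with 1 point for each array (circles A, triangles B, open symbols vector controls; blue sterol arm, grey regulators, orange fatty acid arm; each panel has its own scale). Idi1, Hmgcs1 and Insig1 are highest on the Clusters 1+2 arrays, and Scd1 and Scd2 separate the 2 Puro vec control lines.

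Cluster 1 alone gave rises in the same pathway, mostly smaller than in Clusters 1+2. Scd1 was an exception, at 0.99 against 0.76, and the sizes were not compared by a test. Against its own Puro vec, 20 of the 33 genes rose and none fell, where 4.85% of all genes tested rose (10.1% of the upper tercile by brightness) and 3.38% fell. The 20 were 14 sterol genes, 3 regulators (Srebf2, Insig1, Insig2) and 3 fatty acid genes (Scd1, Scd2, Me1), and none was called with a change of 2-fold or more. The median change was 0.37 in the sterol arm and 0.20 in the fatty acid arm, against 0.01 over all genes. All 20 were also called higher in Clusters 1+2, where 30 of the 33 members and 12.0% of all genes were. That comparison shares no array with this one, but shares the estimate of the spread. The share of all genes called higher in both was not counted.

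The largest changes were in Scd1, Tm7sf2 and Scd2. Scd1 had log2 ratios of -0.12 and -0.23 in the Puro vec for Cluster 1 and 0.72 and 0.90 in Cluster 1, a rise of 0.99 (SE 0.0919, 1.98-fold, adjusted p = 6.77e-05). Tm7sf2 had 0.20 and 0.30 in the control and 1.18 and 1.24 in Cluster 1, a rise of 0.96 (SE 0.0935, adjusted p = 5.57e-05). Scd2 had -1.18 and -1.30 in the control and -0.44 and -0.45 in Cluster 1, a rise of 0.79 (SE 0.0842, adjusted p = 0.000101). In each of the 3 the pairs of arrays did not overlap, as in 51.3% of all genes. Tm7sf2 rose by about as much in Clusters 1+2 (0.98), while its difference in Cluster 2 was -0.03.

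Of the mevalonate enzymes, Idi1 and Fdps both rose by 0.58, Pmvk by 0.43, Hmgcs1 by 0.41 and Mvd by 0.37. Later in the pathway Dhcr7 rose by 0.52, Sc5d by 0.43, Msmo1 by 0.38, Ebp by 0.37, Sqle by 0.36, Lss by 0.34, Nsdhl by 0.32 and Fdft1 by 0.30. Insig1 rose by 0.67 and Srebf2 by 0.43 (adjusted p = 0.00154 and 0.00224), and Insig2 by 0.32. The other sterol genes were positive but not called: Cyp51 0.23, Mvk 0.16, Acat2 0.11, Stard4 0.08 and Hsd17b7 0.06. Fatty acid genes apart from Scd1, Scd2 and Me1 (0.40) lay between -0.15 (Elovl6) and 0.25 (Acly) and were not called. Acaca was not well above background on either Cluster 1 array. The count of 20 depended on single arrays: it was 13 without Cluster 1 A, 12 without Cluster 1 B, 14 without Puro vec for Cluster 1 A and 13 without Puro vec for Cluster 1 B, and 4 with the marked spots kept, of which 2 were sterol genes. The 14 sterol calls were 8 with the mean over probes (Hmgcs1, Fdps, Lss, Nsdhl, Sc5d and Dhcr7 lost). The calls of 11 genes held without any 1 of the 4 arrays (Pmvk, Idi1, Fdps, Tm7sf2, Msmo1, Dhcr7, Srebf2, Insig1, Scd1, Scd2 and Me1). Those of Mvd, Fdft1, Nsdhl, Ebp and Insig2 were lost without any of them, Lss without all but Puro vec for Cluster 1 A, Hmgcs1 without either B array, Sqle without either A array and Sc5d without Cluster 1 B.

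In Cluster 2 the members called were all sterol genes, though not with median centring. There were 7 rises among 32 genes with a value, in Idi1, Dhcr7, Hmgcs1, Ebp, Msmo1, Sc5d and Hsd17b7, and no falls. Of all genes tested 1.71% rose (2.40% of the upper tercile by brightness) and 1.04% fell. No regulator of the 4 with a value and no fatty acid gene of 9 was called in limma, where 1 regulator and 0 fatty acid genes had an unadjusted p under 0.05. The median change was 0.30 in the sterol arm, 0.02 in the regulators, 0.08 in the fatty acid arm and 0.00 over all genes.

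Idi1 had log2 ratios of -0.69 and -0.66 in Hygro vec and -0.01 and -0.06 in Cluster 2, a rise of 0.64 (SE 0.0988, 1.56-fold, adjusted p = 0.00313). Dhcr7 had -0.78 and -0.68 in Hygro vec and -0.19 and -0.18 in Cluster 2, a rise of 0.54 (adjusted p = 0.00358). Msmo1 had -0.72 and -0.69 in Hygro vec and -0.29 and -0.29 in Cluster 2, a rise of 0.41 (adjusted p = 0.00425). The pairs of arrays did not overlap in any of these, as in 44.2% of all genes, and on both slides Cluster 2 was the higher. Hmgcs1 rose by 0.45, Ebp, the sterol isomerase, by 0.44, Sc5d, a sterol desaturase, by 0.40 and Hsd17b7 by 0.37. Sterol genes that were not called ranged from -0.07 (Acat2) to 0.33 (Fdps). Srebf2 differed by 0.20 (adjusted p = 0.173) and Insig1 by 0.09. The probe used for Insig2 had no value because its spot was marked on both Hygro vec arrays. Another Insig2 probe, above background on all 16 arrays, gave 0.19 (limma over probes, adjusted p = 0.414). Scd1 and Scd2 differed by 0.08 and 0.11, with adjusted p of 0.788 and 0.629. With the slide as a block, 7 members were called, where 432 of all genes were higher and 354 lower. On both slides 21 of 32 members were higher in Cluster 2, a share not counted over all genes. The number called was 3 without Cluster 2 B and 4 without Hygro vec B, and 0 with the marked spots kept, on the processed signals or with scale normalisation between arrays, where 10, 14 and 9 members had an unadjusted p under 0.05. With median centring it was 17, of which 13 were sterol and 3 fatty acid genes. That setting moved the median of all genes to 0.13, the sterol median to 0.56 and the fatty acid median to 0.26, and the calls over all genes from 325 higher and 197 lower to 2121 and 150. Idi1, Msmo1 and Dhcr7 were called without each of the 4 arrays in turn, Ebp was lost without Cluster 2 B, Hsd17b7 without Cluster 2 B or Hygro vec B, Hmgcs1 without all but Cluster 2 A and Sc5d without all but Hygro vec A. With the mean over probes Dhcr7, Hmgcs1 and Sc5d lost their calls. Other probes gave 0.13 for Dhcr7, -0.002 for Sc5d, -0.03 and -0.07 for Hmgcs1, 0.50 for Idi1 and 0.30 for Hsd17b7.

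The effect of Clusters 1+2 was larger than that of Cluster 2 for 25 of 32 genes by the test of the difference itself, where 2.91% of all genes tested had a larger effect (4.13% of the upper tercile by brightness) and 3.31% a smaller one. That held for 19 of 19 sterol genes, 2 of 4 regulators (Srebf2 and Insig1) and 4 of 9 fatty acid genes (Acly, Acss2, Scd1 and Scd2). The difference was 1.77 for Idi1 (adjusted p = 1.5e-05), 1.44 for Hmgcs1 (adjusted p = 2.17e-05) and 1.28 for Scd2 (adjusted p = 5.29e-05). Its median was 1.06 in the sterol arm and 0.39 in the fatty acid arm. For Fasn it was 0.31 (adjusted p = 0.11) and for Elovl6 0.39 (adjusted p = 0.0988), and neither was called. Cluster 1 was run with the other dye and another control, so its effect was not set against that of Clusters 1+2 by a test. Stard4 and Acss2 each lost their call without any 1 of 5 of the 8 arrays, among them Hygro vec B, Clusters 1+2 A and Hygro vec + Puro vec B for both. With the marked spots kept 15 genes were called, and with scale normalisation 13.

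**Figure D3:**
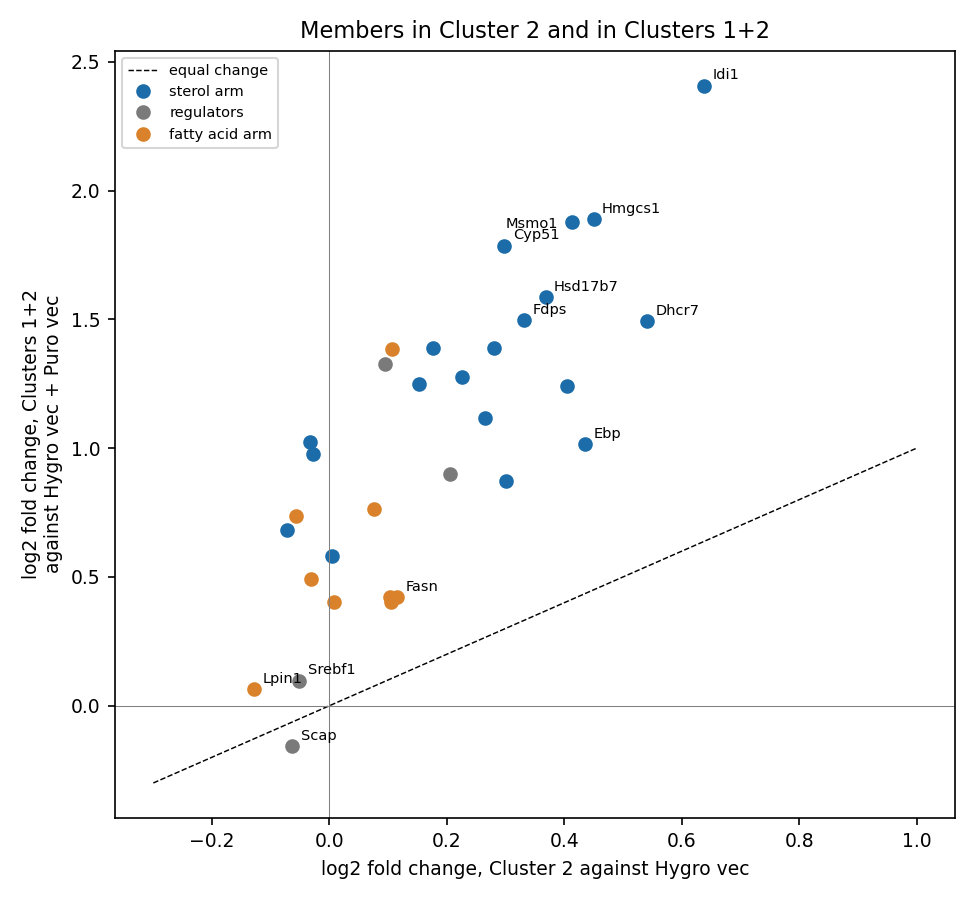
Log2 fold change of each gene in Cluster 2 (x axis) and in Clusters 1+2 (y axis), each against its own control, with the dashed line at equal change. All 19 sterol genes lie above the line, with Idi1 at 0.64 and 2.41.

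Cells overexpressing CDH1 showed the opposite picture against their own Puro vec. There 21 genes fell and 1 rose, where 6.86% of all genes tested fell (14.5% of the upper tercile by brightness) and 7.62% rose. The falls were in 15 sterol genes, 4 regulators and 2 fatty acid genes, and Scd2, Sqle, Srebf2, Scd1 and Hmgcs1 fell by 2-fold or more. The gene that rose was Scap, the SREBP escort, by 0.42 (adjusted p = 0.0021). The median difference was -0.42 in the sterol arm, -0.60 in the regulators, -0.23 in the fatty acid arm and 0.00 over all genes.

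Scd2 had log2 ratios of -0.57 and -0.67 in the Puro vec for CDH1 and -2.24 and -2.20 in CDH1. It fell by 1.60 on the log2 scale (SE 0.0842, 3.03-fold lower, adjusted p = 1.91e-07). Sqle had 0.60 and 0.79 in the control and -0.48 and -0.50 in CDH1. It fell by 1.18 (SE 0.0710, adjusted p = 6.38e-07). Srebf2 had -0.47 and -0.57 in the control and -1.68 and -1.67 in CDH1, and fell by 1.16 (SE 0.0693, adjusted p = 6.38e-07). In all 3 the CDH1 arrays lay close together and far below the control arrays, and 54.3% of all genes also had arrays that did not overlap. Hmgcs1 fell by 1.02, from -0.62 and -0.54 to -1.60 and -1.60. Scd1 fell by 1.04, with 1 CDH1 array only, since its spot was marked on CDH1 B.

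Other mevalonate enzymes that fell were Fdps by 0.97, Pmvk by 0.73 (with 1 control array, since its spot was marked on Puro vec for CDH1 B), Idi1 by 0.49 and Mvd by 0.34. Past squalene, Dhcr7 fell by 0.76, Lss by 0.74, Tm7sf2 by 0.61, Msmo1 by 0.46, Nsdhl by 0.42 (1 CDH1 array), Hsd17b7 and Fdft1 by 0.34, Sc5d by 0.32 and Stard4 by 0.31. Acat2, Mvk, Cyp51 and Ebp were not called, with differences between -0.18 and 0.11. Cyp51 depended on the probe. Its other probes gave -0.41 (called in limma over probes, adjusted p = 0.0205) and -0.19 (not called). Against the Puro vec for Cluster 1 they gave -0.47 (called in limma over probes, adjusted p = 0.0482) and -0.17 (not called). The regulators Insig1 and Insig2 fell by 0.60 each and Srebf1 by 0.52. Apart from Scd1 and Scd2, the fatty acid genes lay between -0.26 (Lpin1) and 0.20 (Fasn) and were not called. Leaving out Puro vec for CDH1 B, the array with few probes above background, left 20 calls and a fall of 1.65 for Scd2. With the marked spots kept 13 genes were called, 8 of them sterol falls. With median centring 7 sterol genes fell and 1 rose, 2 fatty acid genes fell and 1 rose, and the sterol median was -0.26 with that of all genes at 0.10 (over all genes, calls went from 1448 higher and 1304 lower to 3126 and 664). Calls were lost without CDH1 A (Idi1), without CDH1 B (Fdft1, Mvd, Sc5d, Stard4), without Puro vec for CDH1 A (Mvd, Sc5d, Stard4) or without Puro vec for CDH1 B (Fdft1, Nsdhl), with adjusted p of up to 0.324.

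The 2 Puro vec lines carry the same vector by their labels, yet 12 of the 33 genes differed between them. The Puro vec for Cluster 1 was lower for 10 and higher for 2, where 5.18% of all genes tested were lower (11.1% of the upper tercile by brightness) and 4.85% higher. The lower genes were 4 sterol genes (Sqle, Lss, Fdps, Pmvk), 4 regulators (Insig2, Insig1, Srebf2 and Srebf1) and the desaturases Scd1 and Scd2, and the higher ones were Idi1 and Scap. Scd1 differed most, by -1.07 (adjusted p = 2.62e-05), from 0.95 and 0.83 in the Puro vec for CDH1 to -0.12 and -0.23 in the Puro vec for Cluster 1. These lines lay on different slides, so line and slide cannot be told apart. Sqle, Lss, Srebf2, Insig1, Insig2, Scd1 and Scd2 were called without each of the 4 arrays in turn, and the other 5 lost their calls without Puro vec for Cluster 1 A, or without another array. With the mean over probes the limma calls of Srebf2 (adjusted p = 0.189), Lss, Fdps and Idi1 were lost. Values of Cluster 1 and CDH1 against the other Puro vec cross slides in the same way, and they share arrays with the comparisons above.

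Against the Puro vec for CDH1, Cluster 1 was higher for 9 genes and lower for 1, where 4.75% of all genes were higher (10.5% of the upper tercile by brightness) and 3.82% lower. Of the 9, 8 were sterol genes, and those were the genes called higher against both Puro vecs. Idi1 was 0.95 higher against the other control and 0.58 against its own, Tm7sf2 0.92 and 0.96, Msmo1 0.57 and 0.38, and Hmgcs1 0.49 and 0.41. These 4 were called without each of the arrays in turn. The second probe of Idi1, above background on 15 arrays, gave 0.31 against the other control and 0.26 against its own. Neither was called in limma over probes. Other probes of Hmgcs1, above background on 7 and 5 arrays only, gave -0.03 and -0.05 against the other control. Against the own control they gave -0.04 and -0.01. In contrast Scd1 went from 0.99 against its own control to -0.08 (adjusted p = 0.737) against the other, Scd2 from 0.79 to 0.17, Srebf2 from 0.43 to 0.00, Insig1 from 0.67 to 0.16, Sqle from 0.36 to -0.13 and Lss from 0.34 to -0.17, none of them called against the other control. Srebf2 depended on the probe. Its other probes above background on all 16 arrays gave 0.43 and 0.35 against the own control. Against the other control they gave 0.47 (called in limma over probes, adjusted p = 0.0134) and 0.20. Insig2 was called higher against its own control (0.32) and lower against the other (-0.33). The number called was 4 without Puro vec for CDH1 B or without Cluster 1 B, 5 without Cluster 1 A, 3 with the marked spots kept, 6 with no filter on dim probes and 5 with the mean over probes.

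**Figure D4:**
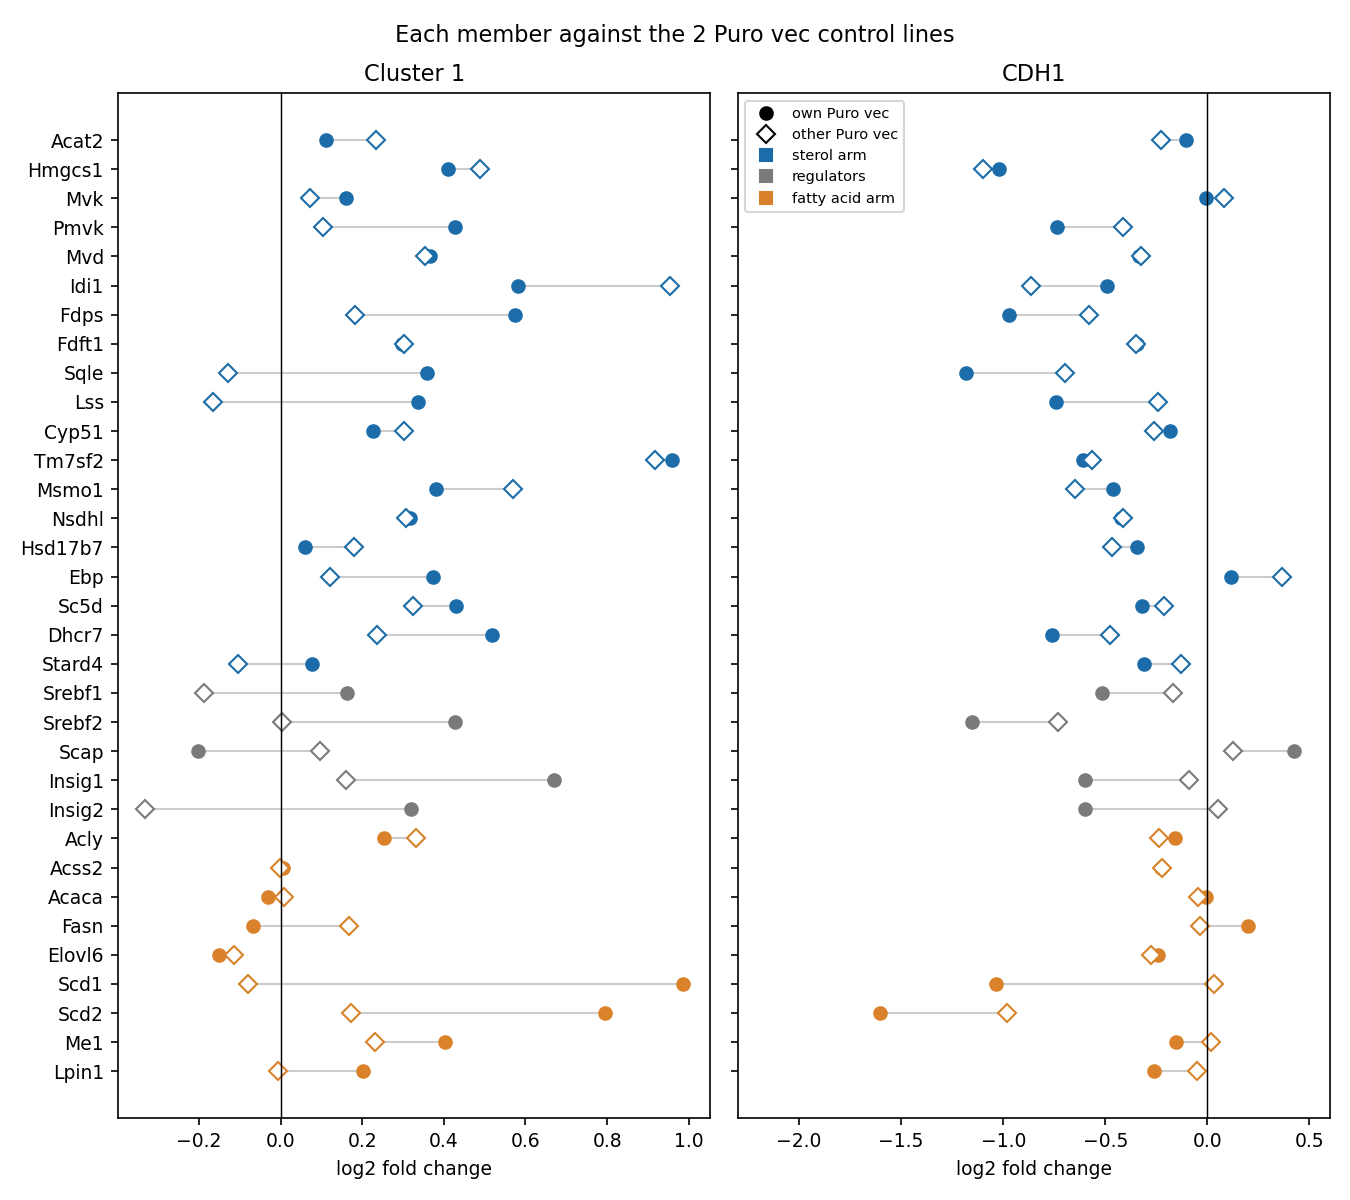
Log2 fold change of each gene in Cluster 1 (left) and CDH1 (right) against its own Puro vec (filled circles) and against the other Puro vec (open diamonds), with a grey line joining them. Scd1 moves from 0.99 to -0.08 in Cluster 1 and from -1.04 to 0.03 in CDH1, while Tm7sf2 and Hmgcs1 stay close to their values.

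CDH1 against the Puro vec for Cluster 1 was lower for 12 genes and higher for 1, where 1.15% of all genes tested were lower (2.90% of the upper tercile by brightness) and 1.26% higher. All 12 were also lower against its own control, and 10 of them were sterol genes, 1 a regulator and 1 a fatty acid gene. Hmgcs1 was lower by -1.10 against the other control and -1.02 against its own. Scd2 was lower by -0.98 and -1.60, Idi1 by -0.86 and -0.49, Srebf2 by -0.73 and -1.16, Sqle by -0.70 and -1.18 and Msmo1 by -0.65 and -0.46. The gene called higher was Ebp, by 0.36 (adjusted p = 0.0335). Scd1 changed from -1.04 to 0.03 (adjusted p = 0.957), Insig1 from -0.60 to -0.09 and Insig2 from -0.60 to 0.05, and Lss from -0.74 to -0.24, with no call. The number called was 7 without CDH1 B, 8 without either array of the Puro vec for Cluster 1, 7 with the marked spots kept and 8 with median centring. The genes called without each of the arrays in turn were Hmgcs1, Idi1, Sqle, Msmo1, Hsd17b7, Srebf2 and Scd2.

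Taking each effect against its own control, the effect of Cluster 1 lay above that of CDH1 for 23 genes and below it for 1 by the test of the difference, where 8.85% of all genes tested lay above (17.2% of the upper tercile by brightness) and 8.15% below. The 23 were 15 sterol genes, 4 regulators and 4 fatty acid genes. The difference was 2.40 for Scd2 (adjusted p = 1.01e-07), 2.02 for Scd1 (adjusted p = 3.92e-06), 1.58 for Srebf2 (adjusted p = 6.52e-07), 1.57 for Tm7sf2 and 1.54 for Sqle. Scap was the gene below, by -0.63 (adjusted p = 0.00121). Fasn and Acaca differed by -0.27 and -0.03 and were not called. The difference between the Puro vec lines enters these values, and for Scd1 it was as large as either effect. With the marked spots kept 14 genes were called, and Cyp51 and Acly lost their calls without any 1 of 6 and of 7 of the 8 arrays, exceptions being Puro vec for Cluster 1 B for both and Puro vec for CDH1 B for Cyp51.

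Set side by side, the sterol arm moved further than the fatty acid arm in each of the 4 comparisons with own controls, on each overexpression array. On Clusters 1+2 A and B the median sterol gene lay 1.28 and 1.30 above the control mean and the median fatty acid gene 0.48 and 0.44. On the Cluster 1 arrays the sterol medians were 0.35 and 0.35 and the fatty acid medians 0.21 and 0.18. On the Cluster 2 arrays they were 0.30 and 0.27 against 0.08 and 0.02. On the CDH1 arrays they were -0.41 and -0.42 against -0.22 and -0.15. The control arrays stayed within 0.04 of 0 in both arms. They were set against their own mean, which draws them to 0, so they are no independent measure of spread. Within the fatty acid arm Scd1 and Scd2 stood apart from the synthesis enzymes Acaca, Fasn and Elovl6. In Cluster 1 and CDH1 neither Acaca, Fasn nor Elovl6 was called, and in Clusters 1+2 they rose by 0.40 to 0.42. The difference between arms is a description of lists, and no test was made of it.

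**Figure D5:**
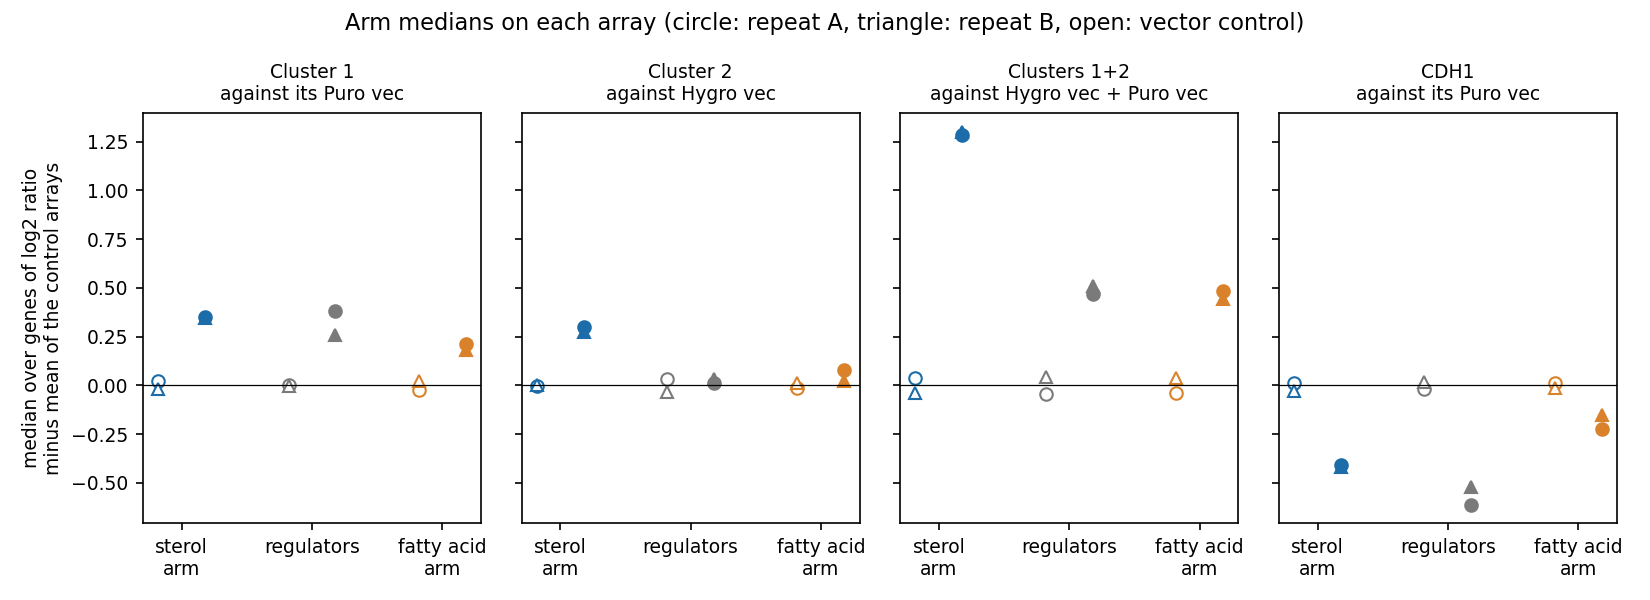
Median over the genes of each arm of the log2 difference from the control mean, on each array of the 4 comparisons with own controls (circles A, triangles B, open symbols vector controls). The sterol medians on Clusters 1+2 A and B (1.28 and 1.30) are the highest. Control arrays are set against their own mean, which draws them to 0.

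Genes next to the pathway moved less uniformly. For the counts below, the shares of all genes that rose were 4.85% in Cluster 1, 1.71% in Cluster 2, 12.0% in Clusters 1+2 and 7.62% in CDH1. The shares that fell were 3.38, 1.04, 12.7 and 6.86%. Of other sterol genes (isoprenoid branches, sterol binding and transport), 2 rose and 3 fell of 14 in Cluster 1, 1 rose of 15 in Cluster 2, 10 rose and 1 fell of 15 in Clusters 1+2, and 3 rose and 3 fell of 15 in CDH1. Rdh11, a retinol dehydrogenase, changed in all 4 comparisons: 0.71 in Cluster 1, 0.29 in Cluster 2, 1.74 in Clusters 1+2 and -0.77 in CDH1. Of 18 other lipid genes, 4 rose and 2 fell in Cluster 1, 1 fell in Cluster 2, 7 rose and 1 fell in Clusters 1+2, and 6 fell in CDH1. In Clusters 1+2 the citrate carrier Slc25a1 rose by 0.82 and Pcyt2, of phosphatidylethanolamine synthesis, by 0.81, while Acsl1, an acyl-CoA synthetase, fell by 0.78. In Cluster 1 Acsl4 rose by 0.84 and Acsl1 fell by 0.65. In CDH1 Mid1ip1, an activator of acetyl-CoA carboxylase, fell by 0.78 and Acsl3 by 0.65. The only call of that list in Cluster 2 was Idh1, a source of NADPH, which fell by 0.45.

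Of 10 genes of SREBP processing and of the sterol sensor LXR, 1 rose and 1 fell in Cluster 1, none of 10 was called in Cluster 2 in limma (2 had an unadjusted p under 0.05), 2 fell in Clusters 1+2 and 2 rose and 2 fell in CDH1. The 2 that fell in Clusters 1+2 were Abca1, the cholesterol exporter, by 0.85 and Mylip, a ligase induced by LXR, by 0.71. Both also fell in CDH1, by 0.44 and 0.34.

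Of the members, 22 had more than 1 probe, and 28 other probes of 19 members were above background on at least 9 arrays. The shares called over all probes of the array were not counted. In Clusters 1+2, 27 of the 28 were positive and 22 were called, with a median of 0.93 against 1.02 for the probes used. Those not called were probes of Acaca, Fasn, Acss2 and Lpin1, all in the fatty acid arm. In Cluster 1, 24 were positive and 4 were called, with a median of 0.09 against 0.32 for the probes used. In Cluster 2, 22 were positive and 0 were called in limma, with a median of 0.13 against 0.16. In CDH1, 24 were negative and 7 were called, with a median of -0.15 against -0.34. Probes of a gene disagreed in places. Another probe of Fdps gave -0.14 in CDH1 and -0.19 in Cluster 1, and the 2 other probes of Lss gave -0.16 and 0.02 in CDH1 and -0.10 and 0.08 in Cluster 1. Another probe of Dhcr7 gave -0.13 in CDH1 and 0.01 in Cluster 1. The second probe of Idi1 gave -0.13 in CDH1 against its own Puro vec and -0.18 against the other. Neither was called, and the probe used gave -0.49 and -0.86. Other probes of Srebf2 above background on all 16 arrays gave -0.63 and -0.38 in CDH1, against -1.16 for the probe used. Not among the 28 are the 2 other probes of Hmgcs1, above background on 7 and 5 arrays only, which gave -0.26 and -0.01 in CDH1. In Clusters 1+2 the other probes of Lss gave 1.39 and 1.05, above the 0.58 of its brightest probe. There other probes of Acss2 gave -0.35 and 0.20, and that of Me1 gave 0.38 and was called. Other probes of Lpin1 gave 0.07, 0.34 and 0.38, with 0.34 and 0.38 called. In CDH1 these Lpin1 probes gave -0.385, -0.25 and -0.48, with -0.48 called. Msmo1, Sqle, Scd1, Scd2 and Tm7sf2 had 1 probe each.

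By the array's own annotation (build mm7), the probes of the leading genes lay in chr8:63138214-63138273 for Msmo1, chr19:44200407-44200466 for Scd2, chr19:44288770-44288829 for Scd1, chr15:59397289-59397348 for Sqle, chr19:5957688-5957747 for Tm7sf2 and chr15:82289660-82289719 for Srebf2. Scd1 and Scd2 are related neighbours on chromosome 19, and their different values between the groups come from separate probes. The Idi1 probe is placed on chromosome 2 (chr2:53701852-53701911), whereas RefSeq places Idi1 on chromosome 13. Both Idi1 probes are named only by the gene symbol on the array, with no accession match, so their identity rests on that symbol. The other 32 members had at least 1 probe matched by accession. Its second probe gave 2.12 in Clusters 1+2. Whether they also read another copy was not tested. Exon and UTR positions were not used here.

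Epithelial markers moved with the sterol genes in the miRNA groups. Of 8 epithelial markers, 6 rose in Cluster 1, 5 in Cluster 2 and 8 in Clusters 1+2, while in CDH1 1 rose (Cdh1 itself) and 1 fell. Their median log2 ratio ran from -1.14 to -0.45 over the Hygro vec and Hygro vec + Puro vec arrays, and was 0.19 and 0.04 in Cluster 2 and 0.83 and 0.76 in Clusters 1+2. It was -0.72 and -0.89 in the Puro vec for Cluster 1 and 0.51 and 0.33 in Cluster 1, and -0.71 and -0.72 in the Puro vec for CDH1 and -0.87 and -0.91 in CDH1. Of 9 mesenchymal markers tested, 1, 1, 4 and 2 fell in Cluster 1, Cluster 2, Clusters 1+2 and CDH1. In the same order 4.85, 1.71, 12.0 and 7.62% of all genes tested rose, and 3.38, 1.04, 12.7 and 6.86% fell. Markers of adipocytes, white blood cells (leukocytes) and endothelium were above background on all arrays for 1 of 7, 2 of 6 and 1 of 4 genes. None of the 6 white blood cell markers was called in limma in the 4 comparisons, where 1, 0, 1 and 1 had an unadjusted p under 0.05 in Cluster 1, Cluster 2, Clusters 1+2 and CDH1. In Cluster 1 all 6 were positive, with a median of 0.43, and in CDH1 5 of 6 were negative, with a median of -0.37, against sterol medians of 0.37 and -0.42. Their median log2 ratio was -1.48 and -1.39 in the Puro vec for Cluster 1 and -0.78 and -0.89 in Cluster 1. It was -0.99 and -1.19 in the Puro vec for CDH1 and -1.48 and -1.86 in CDH1. Neither pair of groups overlapped. Of all genes, taken singly, 51.3% did not overlap in Cluster 1 and 54.3% in CDH1. In Cluster 2 and Clusters 1+2 the median changes of these 6 markers were -0.20 and 0.07. Of them Ptprc, which defines the lineage, was above background on 11 of 16 arrays. The part of these markers in the results on sterol and fatty acid genes was not tested.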

How the data were processed

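RNA from 16 samples was measured on 2-colour Agilent arrays (design 014868). Per the file headers, the deposited intensity of each spot, a mean and a local background median for each channel, came from Agilent Feature Extraction 9.5.3.1. The authors' deposited series matrix holds a ratio for each spot, which matched the software's processed signal of sample over reference, with a median of 0.903 to 1.18 per array. The values used here start from the intensity: spots marked as outliers (264 to 1493 per array) were set missing, normexp with an offset of 50 was applied, and loess within arrays gave log2 ratios, with control spots at weight 0. Cy5 held the sample in CDH1, Cluster 1 and their controls, and Cy3 in the others, and all ratios were turned to sample over reference.

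R 4.3.3 with limma 3.58.1 and data.table (version 1.17.8) was used. A model of 8 group means over 16 arrays (lmFit, eBayes) shared 1 estimate of the spread, and p-values were adjusted by Benjamini-Hochberg over all genes tested. The fit was tested on simulated data. The members and lists were chosen with earlier results of these data known, so their counts are no independent support. All 33 members are named, and other pathway genes are named as the called genes of largest change, at most 4 in a comparison. Of the members, 32 had a probe matched by accession and 2 carry older symbols on the array (Sc4mol for Msmo1, Mod1 for Me1). No deposited column lacked a sample (0). Arrays of the same letter were checked for pairing. Deviations correlated at 0.24 to 0.43 in the 6 pairs of Cy3 groups, where a letter is also a slide, at -0.01 to 0.07 within the Cy5 groups and at -0.18 to 0.08 across dyes. For 2-colour arrays the number of arrays and the signal over background limit precision. Alternatives were marked spots kept, an offset of 10, the processed signals, median centring, scale normalisation, no filter on dim probes, the mean over probes, arrays of 1 dye orientation, a replicate block, a slide block and leaving out each array.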

Additional observations from a re-analysis of the deposited data

Results flagged for a closer look

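The effect of Clusters 1+2 differed from that of Cluster 2, each against its own control, for 25 members by the limma test of the difference (adjusted p under 0.05). The differences in log2 fold change were Acat2 0.75, Hmgcs1 1.44, Mvk 1.10, Pmvk 1.06, Mvd 1.11, Idi1 1.77, Fdps 1.16, Fdft1 1.05, Sqle 0.85, Lss 0.58, Cyp51 1.49, Tm7sf2 1.01, Msmo1 1.46, Nsdhl 1.21, Hsd17b7 1.22, Ebp 0.58, Sc5d 0.84, Dhcr7 0.95, Stard4 0.57, Srebf2 0.70, Insig1 1.23, Acly 0.79, Acss2 0.52, Scd1 0.69 and Scd2 1.28. The groups of both effects lay on slides 1 and 2 with the same dye.

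The effect of Cluster 1 differed from that of CDH1, each against its own Puro vec, for 24 members by the same test. The differences in log2 fold change were Hmgcs1 1.43, Pmvk 1.16, Mvd 0.70, Idi1 1.07, Fdps 1.55, Fdft1 0.64, Sqle 1.54, Lss 1.08, Cyp51 0.41, Tm7sf2 1.57, Msmo1 0.84, Nsdhl 0.74, Hsd17b7 0.40, Sc5d 0.75, Dhcr7 1.28, Srebf1 0.68, Srebf2 1.58, Scap -0.63, Insig1 1.27, Insig2 0.92, Acly 0.41, Scd1 2.02, Scd2 2.40 and Me1 0.55. The Puro vec lines themselves differed for 12 members, and that difference enters these values.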

How the results depend on the processing

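The members called in Clusters 1+2 (30) were 27 to 30 without single arrays and within 1.5 times under the other alternatives run, though its fatty acid part (8) was not. The other counts moved. With the marked spots kept, 4 of 20 members were called in Cluster 1, 0 of 7 in Cluster 2, 13 of 22 in CDH1, 3 of 10 and 7 of 13 in Cluster 1 and CDH1 against the other Puro vec, 4 of 12 between the Puro vec lines, 15 of 25 for Clusters 1+2 minus Cluster 2 and 14 of 24 for Cluster 1 minus CDH1. The cause was not tested. In Cluster 2 the processed signals and scale normalisation gave 0, arrays of 1 dye orientation 4 and median centring 17. Scale normalisation gave 13 for Clusters 1+2 minus Cluster 2. No filter gave 6 and the mean over probes 5 in Cluster 1 against the other Puro vec, median centring gave 8 in CDH1 against the other Puro vec, and the mean over probes gave 8 between the Puro vec lines. Without single arrays the counts were 12 to 14 in Cluster 1, 3 to 6 in Cluster 2, 17 to 20 in CDH1, 4 to 7 and 7 to 10 against the other Puro vec, 8 to 9 between the Puro vec lines, 21 to 25 for Clusters 1+2 minus Cluster 2 and 21 to 24 for Cluster 1 minus CDH1.

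Acaca reversed to -0.0379 (adjusted p = 0.964) in Clusters 1+2 on the processed signals, and the value for Nsdhl, Cluster 1 against the Puro vec for CDH1, to -0.0232 (adjusted p = 0.94) with the mean over probes. The cause was not tested. Median centring moved the median of all genes to 0.13 in Cluster 2 and 0.10 in CDH1, and the differences of effects to -0.17 and -0.11. With the letter as a replicate block, the counts in the order above, beginning with Clusters 1+2, were 30, 19, 7, 22, 9, 13, 12, 25 and 25. The letter is the slide in the Cy3 groups and pairs nothing known in the Cy5 groups. The block ended the calls of Nsdhl in Cluster 1 against either Puro vec and no other of the calls named. Acaca, near background in the Cluster 1 and Puro vec groups, has the least certain values.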
